A study of Homo sapiens with 6 samples.

Results

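Neuropeptide precursor genes were followed in neurons grown from the WTc11 line of human induced pluripotent stem cells. The list held 10 genes (SST, NPY, TAC1, ADCYAP1, PENK, CRH, GAL, VIP, CARTPT and CALCB). Its genes were selected on their isoproterenol and untreated values in these same samples, with earlier results known, so the change of each listed gene is given as a description. Of the 10 genes, 7 had a row among the 19823 genes of the table, and all 7 passed the limit on low counts that left 18130 genes for testing. NPY, CRH and VIP had no row and were not analysed here.

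The RNA came from 6 samples, 3 untreated and 3 given isoproterenol, an agonist of β-adrenergic receptors that raises cAMP. All 6 shared 1 genotype: a guide RNA against RBM12, which encodes an RNA-binding protein, acting with dCas9-KRAB, a repressor fusion that silences the targeted promoter (CRISPR interference). The parental line is 1 clone in which doxycycline switches on NGN2, a transcription factor that turns stem cells into glutamatergic neurons (iNeurons), and no receptor had been added to it. The labels state neither the dose of isoproterenol nor its duration, and neurons carrying a control guide were not analysed here. The comparison therefore addresses which precursor transcripts differ with isoproterenol in RBM12-depleted neurons, not what depletion itself does.

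Neuropeptides are made as larger precursor proteins that carry a signal peptide, enter dense-core granules, and are cut there by convertases into the active peptides, which then act on G protein-coupled receptors of other cells. Transcription of several of these genes is a textbook target of cAMP: protein kinase A phosphorylates CREB, which binds the cAMP response element (CRE), and the somatostatin promoter is where that element was first defined. In the brain somatostatin marks a class of inhibitory interneurons, whereas PACAP (from ADCYAP1), enkephalin (from PENK) and substance P (from TAC1) occur in many excitatory, inhibitory and peripheral neurons.

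Depth ran from 18116816 to 21488793 recovered reads per sample. Values are normalized counts, that is reads per gene divided by 1 size factor per sample. Each log2 fold change is isoproterenol over untreated, on the log2(normalized count + 1) scale. RBM12, the targeted gene, held 244.3 to 278.7 normalized counts untreated and 194.6 to 237.6 with isoproterenol. These groups did not overlap (log2 fold change -0.25), as in 12.9% of all tested genes. RBM12 did not pass an adjusted p of 0.05 in limma, with or without the replicate number fitted. Without a control guide its values say nothing of the extent of depletion. The samples carry replicate numbers 1 to 3 in each group. Same-numbered samples deviated from their group means together, so they are treated as pairs below. Each SE is moderated, meaning that the variance of a gene is drawn toward that of genes of similar level. With the pairs fitted, the SE can therefore be smaller than the spread of a gene's own pairs implies.

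The promoter windows of SST, TAC1 and CARTPT are shown because they differ in the CRE letters they hold. Each is the 200 bases before the annotated start, 5′ to 3′ on the strand of the gene, from RefSeq on GRCh38.p14. Capitals mark the full palindromic element TGACGTCA in SST and CARTPT and a shorter element (TGACG or, on the other strand, CGTCA) in TAC1.
SST (chr3:187670395-187670594, minus strand): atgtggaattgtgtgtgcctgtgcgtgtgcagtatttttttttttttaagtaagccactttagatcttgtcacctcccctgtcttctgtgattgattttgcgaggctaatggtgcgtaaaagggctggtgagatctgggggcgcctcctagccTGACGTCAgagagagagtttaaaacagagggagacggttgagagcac
TAC1 (chr7:97731886-97732085, plus strand): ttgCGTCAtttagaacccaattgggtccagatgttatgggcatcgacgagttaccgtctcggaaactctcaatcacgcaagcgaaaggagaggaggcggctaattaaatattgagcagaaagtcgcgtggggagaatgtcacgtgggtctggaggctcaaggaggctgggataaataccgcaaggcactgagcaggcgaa
CARTPT (chr5:71719075-71719274, plus strand): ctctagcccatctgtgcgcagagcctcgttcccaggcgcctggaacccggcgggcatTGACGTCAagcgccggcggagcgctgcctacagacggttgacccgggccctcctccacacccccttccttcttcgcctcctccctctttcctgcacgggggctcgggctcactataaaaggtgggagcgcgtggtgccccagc

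The element lay 47 to 40 bases before the start in SST and 143 to 136 bases before it in CARTPT. The search covered windows of 300 bases (250 before and 50 after the start) and both strands. Every full element also contains the short element on both strands, so the 2 searches overlap. Among 35116 RefSeq windows, 1.85% held the full element and 24.6% a short element. Windows were read for 6 of the 10 listed genes (SST, NPY, TAC1, ADCYAP1, VIP and CARTPT), of which 2 held the full element and 5 at least a short element, NPY being the one with neither. None of the 50 other precursor genes with a window held the full element (0 of 50), and 14 held a short element. No window was used for PENK, CRH, GAL or CALCB. A match of letters describes the sequence and says nothing of binding in these neurons.

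SST (ENSG00000157005; chromosome 3, 187668912 to 187670394, GRCh38), which encodes the inhibitory peptide somatostatin, was higher with isoproterenol in every pair, by the widest margin of the 7 genes. Untreated replicates 1 to 3 held 361.3, 227.4 and 535.9 normalized counts, and the isoproterenol samples of the same numbers held 843.2, 422.1 and 1017. The groups overlapped, because isoproterenol replicate 2 lay below untreated replicate 3, yet each isoproterenol sample lay above its own untreated partner. Within pairs 1, 2 and 3 the ratio was 2.33, 1.86 and 1.90. The means were 374.8 ± 154.7 and 760.6 ± 305.7 (SD, n = 3 per group), a ratio of 2.03. The log2 fold change was 1.01, with an SE of 0.51 when the pairs were ignored and 0.070 when the replicate number was fitted as a block. Dropping each sample in turn, the lowest value was 0.69, when untreated replicate 2 was dropped, and the highest 1.39, when isoproterenol replicate 2 was dropped.

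PENK (ENSG00000181195), which encodes proenkephalin, the source of Met- and Leu-enkephalin, had the highest count of the 7 genes and was also higher in every pair. It measured 2747, 1871 and 2948 normalized counts in the untreated samples and 3402, 2614 and 4112 with isoproterenol. Here too replicate 2 was the lowest of both groups, and the groups overlapped. The ratio within pairs was 1.24, 1.40 and 1.39, and the means were 2522 ± 572.6 and 3376 ± 749.2 (SD, n = 3 per group). The log2 fold change was 0.42 (SE 0.27, and 0.033 with the block) and lay between 0.22 (untreated replicate 2 left out) and 0.60 (isoproterenol replicate 2 left out). The gene lies on chromosome 8 from 56436674 to 56446671, and 694 of its exonic bases are shared with the antisense gene PENK-AS1. The strand setting of the counting is not stated, so reads from the 2 genes cannot be told apart there. PENK-AS1 itself had no row.

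**Figure D1:**
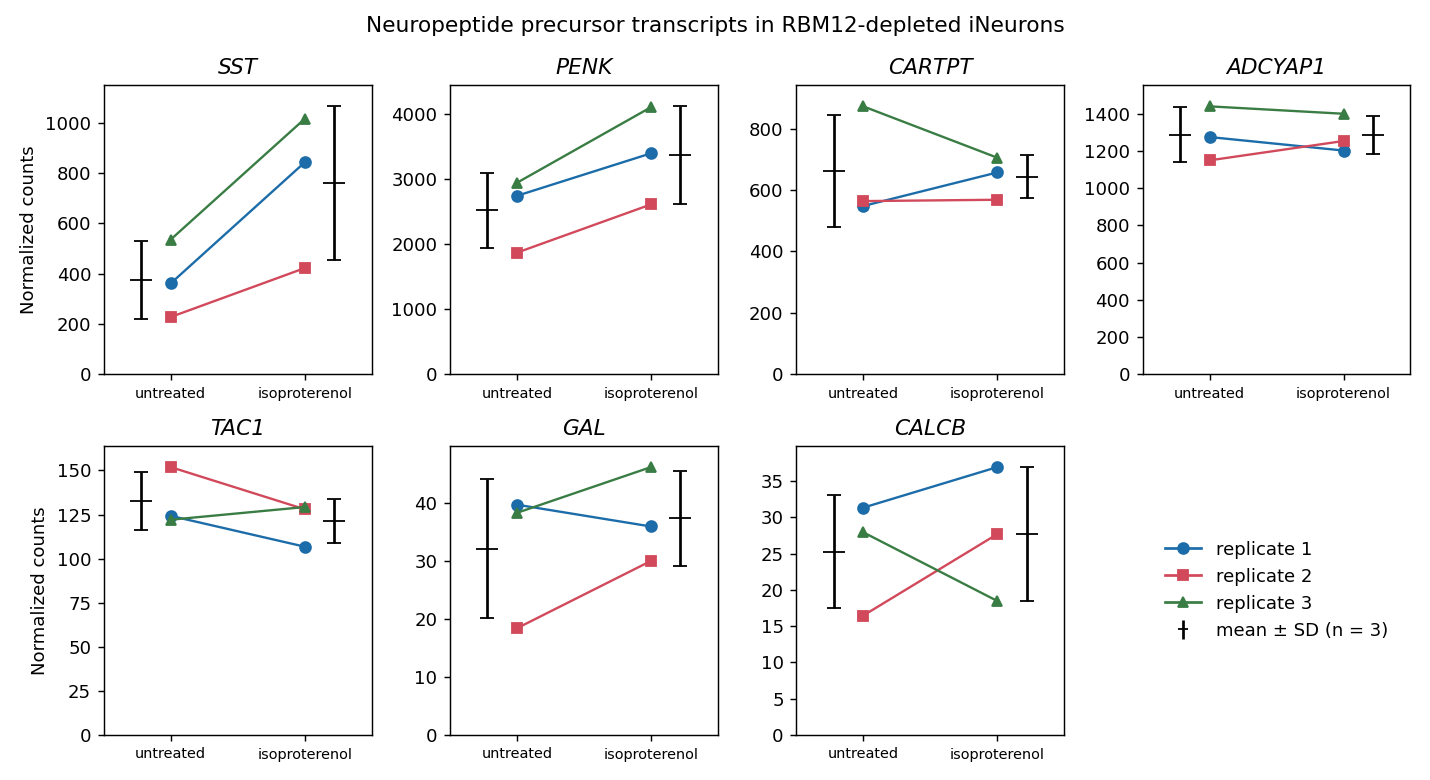
Normalized counts (vertical axes, starting at 0) of the 7 listed precursor genes in untreated and isoproterenol samples; coloured points are samples, lines join same-numbered replicates, and black bars give the mean ± SD of 3 samples. All 3 lines go up for SST and PENK, while the lines cross or differ in direction for the other 5 genes.

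CARTPT (ENSG00000164326; chromosome 5, 71719275 to 71721048) encodes the precursor of CART, a peptide known for its role in feeding and reward. It holds the same full element as SST, and its values did not move in 1 direction. Any relation between the element and the change of a gene was not tested. The untreated samples held 548.2, 564.1 and 873.1 normalized counts and the isoproterenol samples 657.6, 568.6 and 705.7. The ratio was 1.20 in pair 1, 1.01 in pair 2 and 0.808 in pair 3. The log2 fold change was -0.01 (SE 0.21, and 0.069 with the block), and its range of -0.13 to 0.21 with 1 sample left out spanned 0. Pairs 1, 2 and 3 lay at 0.26, 0.01 and -0.31 on the log2 scale, a wider spread than the moderated SE of 0.069 conveys.

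ADCYAP1 (ENSG00000141433; chromosome 18, 904871 to 912172), which encodes PACAP, itself a stimulator of cAMP through its receptor, varied least of the 7 over the 6 samples. Its untreated samples measured 1275, 1150 and 1440 normalized counts and its isoproterenol samples 1202, 1254 and 1400. Only pair 2 was higher with isoproterenol (ratio 1.09, against 0.943 and 0.972 in pairs 1 and 3). The means of 1288 ± 145.7 and 1285 ± 102.7 (SD, n = 3 per group) differed by less than either SD, and the SE of the log2 fold change was 0.077. An antisense gene, ENSG00000265179, shares 578 exonic bases with ADCYAP1 and held 145.9 to 203.6 normalized counts, so a part of these reads may be counted for the wrong gene if strand was not used.

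TAC1 was expressed at a middle level and GAL and CALCB at low levels. TAC1 (ENSG00000006128; chromosome 7, 97732084 to 97740472), the source of substance P and neurokinin A, held 124.3, 151.9 and 122.1 normalized counts untreated and 106.8, 128.0 and 129.2 with isoproterenol. The ratio within pairs was 0.859, 0.843 and 1.06, and the log2 fold change was -0.13 (SE 0.14). GAL (ENSG00000069482; chromosome 11, 68683779 to 68691175), which encodes galanin, held 39.7, 18.4 and 38.3 normalized counts untreated and 35.9, 30.0 and 46.2 with isoproterenol. These values rest on 19 to 45 reads, and the log2 fold change of 0.27 (SE 0.29) became -0.08 without untreated replicate 2. CALCB (ENSG00000175868; chromosome 11, 14904997 to 15082342), which encodes the β form of CGRP, a vasodilator peptide of sensory neurons, held 31.3, 16.4 and 27.9 normalized counts untreated and 36.9, 27.7 and 18.5 with isoproterenol. It was higher in pairs 1 and 2 and lower in pair 3, on 17 to 37 reads per sample, and without untreated replicate 2 its log2 fold change of 0.13 (SE 0.32) was -0.14. Because CALCB resembles its paralog CALCA and shares 115 exonic bases with the pseudogene CALCP, its assignment is uncertain. Neither CALCA nor CALCP had a row.

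In the fit that ignored the pairs, none (0) of the 7 genes passed an adjusted p of 0.05 in limma, edgeR or DESeq2, where 0.0165% of all tested genes passed in limma. An unadjusted limma p under 0.05 was found for 0 of the 7 and for 7.68% of all tested genes. With the replicate block, SST and PENK passed and the other 5 did not, where 4.88% of all tested genes passed (2.82% higher and 2.06% lower with isoproterenol). Both were also passed by edgeR with the block. SST and PENK were the 2 of 7 genes higher in all 3 pairs, as were 18.5% of all tested genes, and 0 of 7 were lower in all 3 pairs, as were 17.6%. In 0 of 7 genes did the isoproterenol values lie wholly outside the untreated values, against 12.9% of all tested genes. The median log2 fold change was 0.13 over the 7 genes and 0.0015 over all genes tested. Since the list was chosen with these changes known, the counts describe it and support nothing further.

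Levels of different genes were compared per kilobase of exon, using the summed length of all annotated exons. This length can exceed that of any 1 transcript, by an amount that may differ between genes. It was 607 bases for SST, 3392 for PENK, 3877 for ADCYAP1 and 3938 for CALCB, so the order below depends in part on annotation. SST stood highest, with a mean of 935 normalized counts per kilobase over the 6 samples (375 to 1675), followed by PENK with 869 (552 to 1212) and CARTPT with 591 (497 to 791). These 3 neighbours overlapped between samples and their order changed with the group. In the untreated samples PENK averaged 744 per kilobase, SST 618 and CARTPT 599, whereas with isoproterenol SST averaged 1253, PENK 995 and CARTPT 583. The remaining genes separated without overlap: ADCYAP1 at 332 per kilobase (297 to 371), TAC1 at 74.2 (62.4 to 88.7), GAL at 26.7 (14.1 to 35.5) and CALCB at 6.72 (4.18 to 9.38). Among all tested genes SST and PENK stood at percentiles 95.9 and 95.6, CARTPT at 92.7, ADCYAP1 at 85.4, TAC1 at 54.2, GAL at 33.9 and CALCB at 13.4. The list thus spans abundant and barely detected transcripts of the same neurons.

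A pattern across replicates was shared by SST, PENK and GAL, in each of which replicate 2 was the lowest of both groups. All tested genes showed this in 17.0% of cases. For SST the highest sample of a group exceeded the lowest by 2.36 times among the untreated and 2.41 times among the isoproterenol samples, a spread larger than the change within any pair. For PENK the same ratios were 1.58 and 1.57. The SE of the log2 fold change fell from 0.51 to 0.070 for SST, and from 0.27 to 0.033 for PENK, when the pairs were fitted.

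Beyond the list, 59 further precursor genes were examined, of which 26 had a row and 22 passed the limit on low counts. Precursors of the vasoactive urotensin peptides and of thyrotropin-releasing hormone (TRH) were higher with isoproterenol. With the replicate block 3 of 22 rose (UTS2, TRH and UTS2B) and 0 fell, against 2.82% and 2.06% of all genes, and without the block 0 passed in limma, edgeR or DESeq2 (smallest limma adjusted p 0.596, with 4 genes at an unadjusted p under 0.05, a level reached by 7.68% of all genes). Of the 22, 17 had a log2 fold change above 0, as did 50.5% of all tested genes, and the median was 0.20. All 3 pairs were higher in 8 genes and lower in 1, which over all genes held for 18.5% and 17.6%. The groups did not overlap for 4 genes (ADM, GNRH2, GHRL and NPPB), against 12.9% of all genes, and none of these passed either fit. NPPB had the largest log2 fold change of the 22 (1.12, on 3 to 16 reads per sample), and ADM stood at 0.74 on 13 to 44 reads.

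UTS2, which encodes urotensin-2, was the most abundant precursor in either list by normalized count and by length, with a mean of 5809 normalized counts and 3240 per kilobase. Its untreated samples held 5324, 4257 and 6653 normalized counts and its isoproterenol samples 6400, 5057 and 7161. Replicate 2 was again lowest in both groups and the groups overlapped, while each pair was higher with isoproterenol. The log2 fold change was 0.21 (SE 0.027 with the block; limma adjusted p 3.58e-09 with the block and 0.888 without it), and it ran from 0.05 without untreated replicate 2 to 0.37 without untreated replicate 3 in the fit without the block.

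TRH held 649.5, 501.2 and 710.7 normalized counts untreated and 806.2, 681.6 and 821.6 with isoproterenol. Only isoproterenol replicate 2 fell within the untreated range. Its log2 fold change was 0.32 (SE 0.060 with the block; limma adjusted p 5.24e-05 with it and 0.605 without it), between 0.18 without untreated replicate 2 and 0.43 without untreated replicate 3. UTS2B, which encodes the urotensin-2-related peptide, held 85.6, 69.7 and 81.7 normalized counts untreated and 155.7, 76.1 and 115.9 with isoproterenol. Its rise of 0.49 (SE 0.16 with the block; limma adjusted p 0.0472 with it and 0.606 without it) did not hold when a pair was dropped: the blocked adjusted p was 0.570 without pair 1 and 0.181 without pair 3. In the fit without the block the rise was 0.25 with isoproterenol replicate 1 left out and 0.76 with isoproterenol replicate 2 left out. UTS2 and TRH passed with any 1 of the 3 pairs left out. With a pair left out, a gene has less spread of its own to draw on, and the SE rests more on genes of similar level. Passing such a fit, here and below, is therefore no measure of stability.

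NTS (neurotensin), PTH2 (tuberoinfundibular peptide) and CCK (cholecystokinin) completed the 5 most abundant genes of the wider list. None of these 3 passed either fit. NTS averaged 301 normalized counts, PTH2 186 and CCK 149, with log2 fold changes of 0.06 (SE 0.24), 0.15 (SE 0.15) and -0.04 (SE 0.17).

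**Figure D2:**
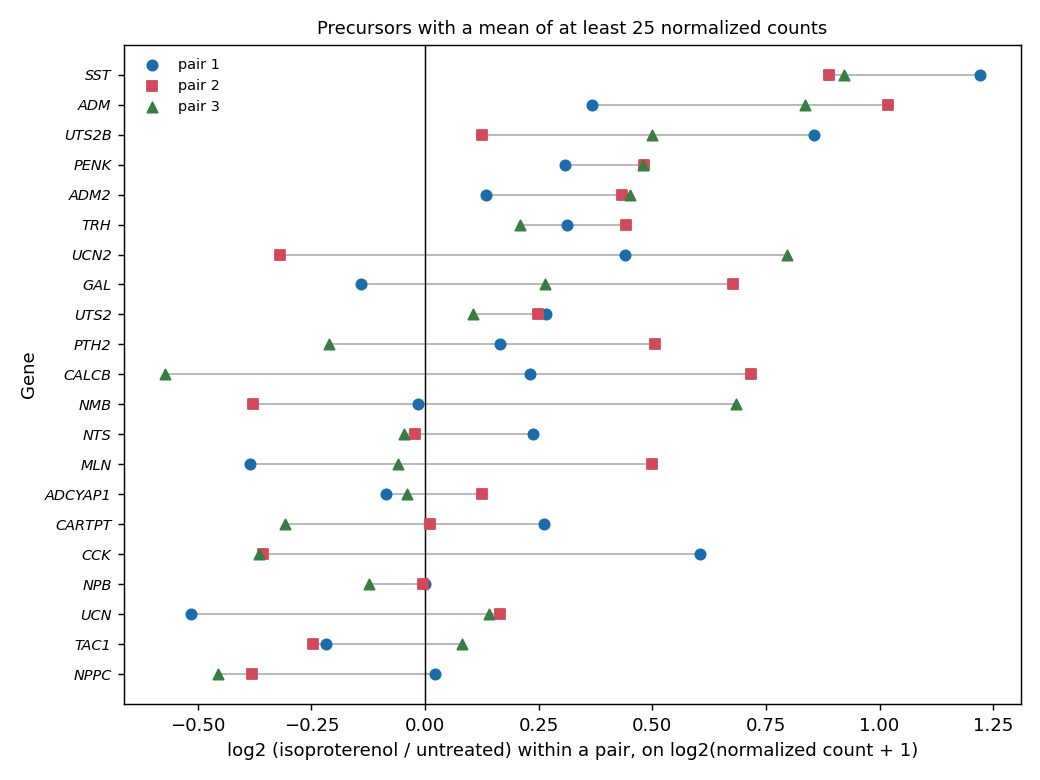
The log2 ratio of isoproterenol to untreated within each same-numbered pair (horizontal axis, on log2(normalized count + 1); 3 symbols per gene, joined by a line) for precursor genes averaging at least 25 normalized counts, ordered by mean change. For SST the 3 pairs lie between 0.89 and 1.22 and for PENK between 0.31 and 0.48, while most low-count genes, among them GAL and CALCB, span 0.

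Receptors and binding proteins for the 10 listed peptides were examined as the next step of the pathway. Of 29 genes, 24 had a row and 23 were tested. With the block 2 rose (SSTR2 and CRHR2), 1 fell (OPRK1) and 20 did not pass, where 2.82% of all tested genes rose and 2.06% fell. Without the block 0 passed in limma, edgeR or DESeq2 (smallest limma adjusted p 0.207, for SSTR2; 3 genes at an unadjusted p under 0.05, against 7.68% of all genes). The median log2 fold change of the 23 was 0.0015, the same as that of all genes tested. The 2 groups did not overlap for 3 genes (SSTR2, SSTR3 and CRHBP), against 12.9% of all genes.

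The somatostatin receptors moved unequally. SSTR2, a Gi-coupled receptor that lowers cAMP, held 811.3, 699.6 and 823.4 normalized counts untreated and 985.8, 886.9 and 1020 with isoproterenol. Every isoproterenol sample lay above every untreated one. The log2 fold change was 0.31 (SE 0.053 with the block; limma adjusted p 7.91e-06), and SSTR2 passed with any 1 pair left out. It also passed in the fit without the block once isoproterenol replicate 2 was left out. SSTR3 held 91.9, 74.5 and 75.5 normalized counts untreated and 103.8, 107.3 and 109.8 with isoproterenol, and did not pass (limma adjusted p 0.125 with the block; log2 fold change 0.41, SE 0.16). For SSTR1 the values were 558.6, 643.5 and 490.3 untreated and 474.0, 577.8 and 429.8 with isoproterenol, lower in all 3 pairs, and it did not pass either (log2 fold change -0.19, SE 0.067 with the block; limma adjusted p 0.0744); with untreated replicate 2 left out its change was -0.09. The difference between receptors was not tested.

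CRHR2, a receptor for the CRH family, held 1071, 867.0 and 1167 normalized counts untreated and 1202, 1097 and 1359 with isoproterenol. It rose by 0.24 on the log2 scale (SE 0.048 with the block; limma adjusted p 0.000154) and passed with any 1 pair left out. Ignoring the pairs, the rise was 0.12 with untreated replicate 2 left out and 0.33 with untreated replicate 3 left out. CRHBP, which binds and sequesters CRH, held 155.6, 170.3 and 225.5 untreated and 151.7, 144.2 and 144.6 with isoproterenol. Its values were lower without overlap, yet it did not pass (log2 fold change -0.30, SE 0.12 with the block; limma adjusted p 0.141), and with untreated replicate 3 left out the change was -0.15. CRH itself had no row.

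OPRK1, the κ-opioid receptor, which responds mainly to dynorphins, held 482.4, 627.0 and 409.6 normalized counts untreated and 394.1, 544.3 and 336.4 with isoproterenol. Replicate 2 was the highest of both groups, the reverse of SST and PENK. The log2 fold change was -0.26 (SE 0.072 with the block; limma adjusted p 0.0149), and the call was lost without pair 1 (blocked adjusted p 0.102) or pair 3 (0.0861). Ignoring the pairs, it was -0.45 with isoproterenol replicate 2 left out and -0.09 with untreated replicate 2 left out. OPRM1, the μ-opioid receptor that binds enkephalins, averaged 806 normalized counts with a log2 fold change of -0.07 (SE 0.10).

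The receptor with the highest count, and the highest level per kilobase, was ADCYAP1R1, the PACAP receptor, at 5792 to 5967 normalized counts in all 6 samples, with a log2 fold change of 0.01 (SE 0.039). GALR1, a galanin receptor, came next by count at 1989 to 2865, with a log2 fold change of 0.06 (SE 0.034 with the block; limma adjusted p 0.382). Per kilobase, CRHR2 (296) and RAMP2 (265), a partner of CGRP-family receptors, stood above GALR1 (231). Both exceeded their ligands per kilobase: ADCYAP1R1 averaged 839 against 332 for ADCYAP1, and GALR1 231 against 26.7 for GAL. OPRM1 and OPRK1 were detected beside PENK, whereas OPRD1, the δ-opioid receptor, averaged 7.67 normalized counts on 2 to 17 reads per sample. SSTR1, SSTR2 and SSTR3 were detected beside SST, while SSTR4 and SSTR5 had no row.

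**Figure D3:**
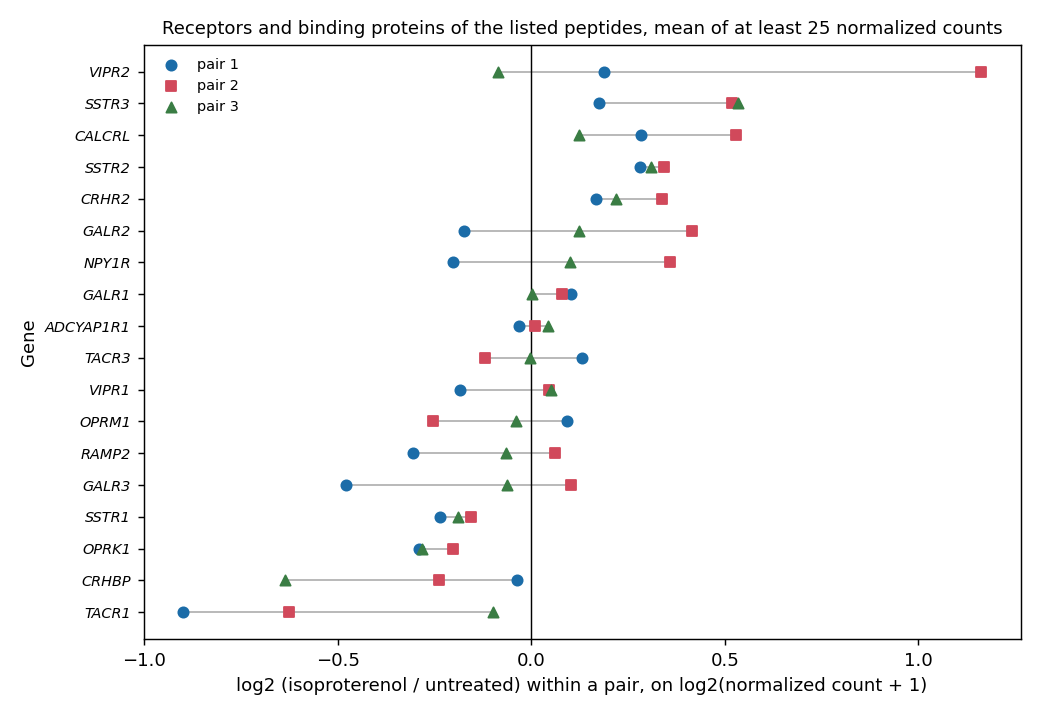
The log2 ratio of isoproterenol to untreated within each pair (horizontal axis, on log2(normalized count + 1)) for receptors and binding proteins averaging at least 25 normalized counts; 3 symbols per gene mark the pairs. SSTR2 and CRHR2 lie above 0 in all 3 pairs, OPRK1 and SSTR1 below 0 in all 3, and ADCYAP1R1 close to 0.

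The machinery that cuts and stores peptide precursors was abundant and little changed in size. All 17 genes of the list were tested. With the block 4 rose (PCSK1, CADPS, SCG2 and PTPRN2) and 0 fell, where 2.82% of all tested genes rose and 2.06% fell, and without it 0 passed in limma, edgeR or DESeq2 (smallest limma adjusted p 0.650; 0 genes at an unadjusted p under 0.05, against 7.68% of all genes). PCSK1, the prohormone convertase that cuts precursors at paired basic residues, rose by 0.14 on the log2 scale (SE 0.028 and limma adjusted p 0.000114 with the block). CADPS, which primes granules for release, rose by 0.12 (limma adjusted p 0.00146). SCG2, the most abundant gene of the list at a mean of 36693 normalized counts, rose by 0.08 (limma adjusted p 0.000173), and PTPRN2, a granule membrane protein, by 0.07 (limma adjusted p 0.0467), a call that edgeR with the block did not make. Of these only SCG2 passed with any 1 pair left out: the blocked adjusted p reached 0.0993 for PCSK1 without pair 3 and 0.0583 for CADPS without pair 1, and PTPRN2 failed without any 1 pair (0.129 to 0.259). Ignoring the pairs and leaving out 1 sample at a time, replicate 2 of either group gave the extremes for SCG2 (-0.03 to 0.18), CADPS (0.06 to 0.18) and PTPRN2 (0.04 to 0.09), and for PCSK1 the values were 0.06 without isoproterenol replicate 3 and 0.21 without isoproterenol replicate 2. VGF, at a mean of 31875, did not pass (log2 fold change 0.05, SE 0.20). In 14 of the 17 genes replicate 2 was lowest in both groups, the order seen for SST and PENK and found in 17.0% of all genes.

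**Figure D4:**
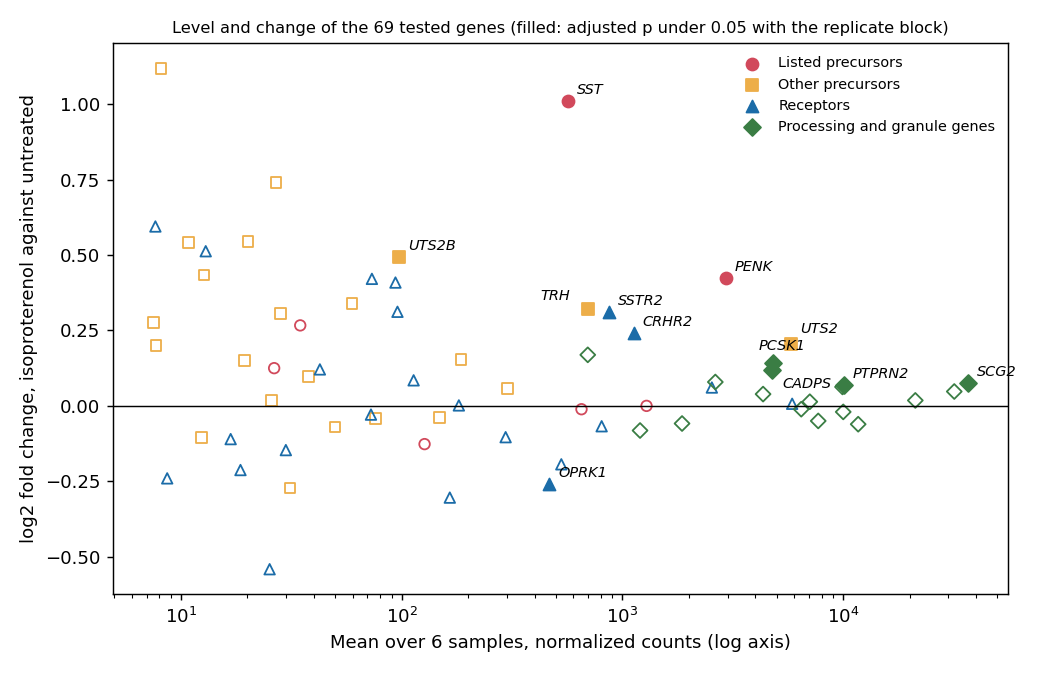
Mean normalized counts over 6 samples (horizontal log axis) against the log2 fold change with isoproterenol (vertical axis) for the 69 tested genes of the 4 lists; filled symbols passed an adjusted p of 0.05 with the replicate block. SST at 1.01 and PENK at 0.42 lie above the other named genes of similar or higher level, and the processing genes lie close to 0.

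The labelled cell type was checked against marker genes, since somatostatin is better known from inhibitory than from glutamatergic neurons. Of 7 glutamatergic markers 6 had a row, led by SLC17A6 (VGLUT2) with a mean of 13524 normalized counts, and SLC17A7 (VGLUT1) averaged 3117, whereas TBR1 averaged 6.25 and NEUROD2 had 3.10 to 10.4. Of 10 GABAergic markers 5 had a row, with the highest counts for GAD2 (26.4) and GAD1 (22.6), while the transporter SLC32A1 averaged 16.9. Per kilobase the order was SLC32A1 (6.63), GAD2 (4.48) and GAD1 (2.74). The summed level of all 5 GABAergic markers with a row, LHX6 and PVALB included, was 60.6 to 70.3 normalized counts in the untreated samples. In the isoproterenol samples it was 79.6 to 88.2. None of the 4 tested passed with or without the block (smallest limma adjusted p 0.650 without it; 0 genes at an unadjusted p under 0.05), and SLC32A1 was lower in all 3 pairs (log2 fold change -0.38, SE 0.34) while GAD1 and GAD2 were higher in all 3 (0.74, SE 0.35, and 0.49, SE 0.27). The sums of the 2 groups did not overlap, whereas the SST values did, and the part of these markers in the result for SST was not tested. LHX6, a transcription factor of forebrain interneurons, held 3.13, 2.90 and 9.31 normalized counts untreated and 6.98, 9.23 and 9.23 with isoproterenol (log2 fold change 0.78, SE 0.51; higher in 2 of 3 pairs). DLX1, DLX2, DLX5, DLX6 and NKX2-1, which also mark forebrain interneurons, had no row, and PVALB lay below the limit on low counts. In bulk RNA, more cells that make a transcript and more transcript per cell cannot be told apart.

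Markers of peripheral neurons all had a row (9 of 9), led by POU4F1 with a mean of 9427 normalized counts and RET with 4990. The lowest mean in this list was 23.7. The summed level of this list was 15625 to 16882 in untreated and 14639 to 16372 in isoproterenol samples. POU4F1, a transcription factor of sensory neurons, fell by 0.15 on the log2 scale with the block (limma adjusted p 1.40e-07, and 0.735 without the block), where 2.06% of all genes fell with the block, and the other 8 did not pass. Ignoring the pairs, the change of POU4F1 was -0.23 with isoproterenol replicate 2 left out and -0.09 with untreated replicate 2 left out. Astrocyte markers were AQP4 (mean 104.5) and S100B (50.5), with 4 of 6 having no row, and their sum was 159.8 to 175.1 untreated and 134.4 to 156.8 with isoproterenol. Pluripotency markers were near the limit, led by LIN28A at 14.7 and POU5F1 at 4.95, with SOX2 at 0 in all but 1 sample, and their sum was 19.4 to 19.8 untreated and 15.4 to 28.8 with isoproterenol. Among 4 proliferation markers only CCNB1 had a row (mean 133.7; 112.2 to 147.2 untreated and 123.1 to 144.7 with isoproterenol).

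Genes with profiles most like those of SST and PENK were found over the 6 samples and 16942 genes averaging at least 10 normalized counts, as the smallest root mean square difference between centred log2 profiles. For SST these were GAD1 (difference 0.17), GABRE (0.17) and GPR50 (0.18). GABRE, which encodes a GABA-A receptor subunit, held 182.7, 78.4 and 235.9 normalized counts untreated and 380.2, 173.0 and 390.8 with isoproterenol, and GPR50 held 425.0, 234.2 and 544.1 against 699.5, 455.5 and 876.0. GAD1 held only 9.68 to 35.9 normalized counts. All 3 shared the low replicate 2 of SST as well as its direction, which follows from how they were chosen. For PENK the nearest were CDKN1A (0.074), PWWP3B (0.079) and AC022506.2 (0.079). CDKN1A, which encodes the cell-cycle inhibitor p21, held 303.9, 216.7 and 290.7 normalized counts untreated and 353.2, 284.9 and 453.4 with isoproterenol. The likeness describes these 6 libraries, which all profiles share.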

How the data were processed

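Poly(A) RNA from 6 samples was sequenced from libraries made, per the labels, with a directional kit. Per the study's methods and labels, the authors aligned reads to GRCh38 with STAR and counted them per gene with featureCounts; versions, annotation and strand setting are not given in the sources used here. The deposited table holds a signal, the read count divided by a DESeq2 size factor per sample (0.867 to 1.033). All nonzero values (100%) were whole multiples of 1 step per column within 0.01 reads, which gave back reads. Counting error alone is covered by read numbers, and labels do not say whether replicates were separate cultures, so p-values describe these samples only. With the block, the limma p-values rest only in part on how far the pairs differ in their change. The moderated SE behind each limma p-value also draws on the variance of genes of similar level. A small limma p-value is therefore no measure of how closely the pairs of that gene agree.

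Genes with more than 5 reads in at least 4 samples were kept (18130 kept, 1693 removed). Because values were normalized, limma 3.58.1 (R 4.3.3; intensity trend, robust) on log2(value + 1) replaced edgeR, two-sided, with Benjamini-Hochberg adjustment over all tested genes. edgeR 4.0.16 and DESeq2 1.42.0 were run on recovered reads as alternatives, beside other scalings, pseudocounts, filters and single samples left out. The correlation between same-numbered samples of their deviations from the group mean was 0.269 for pair 1, 0.493 for pair 2 and 0.388 for pair 3 over 11587 genes averaging at least 100, all above 0.1, so the numbers given in the labels were taken as pairs and values fitted with the block accompany each result whose call they alter. Replicates were distinct (chi-square per degree of freedom 3.32 to 5.46 within groups). Scripts were tested on simulated data.

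Members and gene lists were chosen with earlier results of these data known. Named were all members; of other precursors, the 5 most abundant and those passing either fit; of receptors and processing genes, the 2 most abundant and up to 5 passing either fit; of each marker list, the 2 most abundant, 1 of which is not reported here; and 3 genes most like SST and PENK. SLC17A7, SSTR1, SSTR3, CRHBP, OPRM1, TBR1, NEUROD2, RAMP2, LHX6, PVALB, the absent GABAergic markers, SLC32A1 and SOX2 were added after their values were seen. OPRD1, SSTR4 and SSTR5 were added likewise. Positions and exons came from GENCODE 44, in which 19742 identifiers were found.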

Additional observations from a re-analysis of the deposited data

How the results depend on the processing

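Taking the pairs into account moved the counts most. Genes past an adjusted p of 0.05 numbered 3 in limma without the replicate block, 885 with it, 944 in edgeR with the block and 22 in DESeq2 without it; with 1 sample left out they ran from 2 to 67 (without isoproterenol replicate 2). With the block the counts went from 0 to 3 for the other precursors, 0 to 3 for the receptors and 0 to 4 for the processing genes, and edgeR with the block gave 3, 3 and 3. With 1 sample left out the receptors ran from 0 to 1, the 1 being SSTR2. With the block and 1 pair left out, an alternative added after the data were seen, the counts were 531, 665 and 456 over all genes without pairs 1, 2 and 3 in turn, and ran from 2 to 3 for the other precursors, from 2 to 3 for the receptors and from 2 to 3 for the processing genes. SST and PENK passed in each of these 3 fits, which describes them only, because the list was chosen with the values of these samples known. TMM and total-count scaling, pseudocounts of 0.5 and 5, no filter and a filter on a mean of 50 left these 4 counts within 1.5 times of their values without the block. Over the 7 members, none (0) of 131 alternative log2 fold changes moved by as much as 1 SD between replicates. Leaving out 1 of 3 samples cannot move a log2 fold change that far. The limma block and the filters leave it unchanged, so this count is no measure of robustness. The log2 fold changes of GAL, CALCB, CARTPT and ADCYAP1 changed sign with single samples left out. Depth limits GAL and CALCB, at under 46 reads per sample, most.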
